A study of Mus musculus with 56 samples.

Results

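A low and a high dose of PLX3397 were set against each other in the hippocampus of mice with chronic epilepsy: 15 arrays of mice given 30 mg/kg and 18 arrays of mice given 3 mg/kg, of 56 arrays in all. Members were the arrays whose titles name pilocarpine and the dose, and no vehicle array entered the contrast of the main fit. All mice were adult male NMRI mice, over 12 weeks of age. Both dose groups had received N-methylscopolamine and then pilocarpine, which brings on status epilepticus, and diazepam to end it, and were gavaged daily with the drug. The other arrays, 17 of epileptic mice given vehicle and 6 of naive mice given vehicle and no pilocarpine, are shown for orientation. They also entered the model, where they helped to estimate the spread and, in a fit blocked by set of sample numbers, the level of each set. Treatment lasted 7 days according to the sample labels and 2 weeks according to the design text. The paper also puts the RNA for the arrays at 2 weeks of treatment, and describes a separate 7-day treatment read by quantitative PCR. The sample labels conflict with this, for a reason not given. The labels tie no array to a mouse. A legend of the study gives fewer mice a group than there are arrays. Its methods give more, and describe the hippocampus of a single hemisphere of each mouse as the source of the array RNA. The p-values measure the spread between arrays, and would be too small if, against that description, some arrays shared a mouse.

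PLX3397 is an oral inhibitor of the receptor tyrosine kinase CSF1R, which receives the cytokines CSF1 and IL-34. Microglia, the resident macrophages of brain tissue, and the macrophages that lie along brain vessels depend on CSF1R signals for survival, and the drug also inhibits the related kinases KIT and FLT3. Epileptic hippocampus is known for activated microglia and reactive astrocytes. Csf1r and Kit had no named probe on the array, and the probe of Flt3 did not pass the detection filter, so the drug's own targets gave no value. In whole tissue, fewer cells of a type and less RNA per cell cannot be told apart.

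Of 9893 genes tested, 91 (0.920%) rose and 124 (1.25%) fell with the higher dose relative to the lower (limma, Benjamini-Hochberg adjusted p under 0.05). With the arrays scaled to a common median instead of quantile normalised, 26 rose and 75 fell, so the share of falls among the calls was 74.3% there and 57.7% here. The effects were mostly small. The median log2 fold change was 0.19 among the genes called higher and -0.19 among those called lower, and 5 genes in each direction passed 1.5-fold. Over all genes tested the median was -0.0012. For no single gene did the 15 arrays at 30 mg/kg lie wholly apart from the 18 at 3 mg/kg. Signals near background compress fold changes, so differences of dim genes are understated; Il1a, not detected on any array at 3 mg/kg, still read 6.87 to 7.06 there on the log2 scale.

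Arrays were of similar quality in both groups. Their median intensity was 119 to 151 at 30 mg/kg and 110 to 142 at 3 mg/kg, and 44.9% to 48.8% of probes were detected at 30 mg/kg and 44.6% to 49.7% at 3 mg/kg. Hippocampal markers were bright in both groups, among them Camk2a, of pyramidal neurons, with a mean log2 signal of 12.78 in the high and 12.74 in the low dose group, and Mbp, of myelin, with 13.94 in the high and 13.98 in the low dose group. The submitters' sample numbers fall into a run of low numbers (2 arrays of the high and 8 of the low dose) and, after a gap, a run of high numbers (13 of the high and 10 of the low dose). They were divided into sets of 8 consecutive numbers, of which 5 held both doses; runs and sets are stretches of numbers, and no label gives them an order in time or a processing batch. In a fit blocked by set, 27 genes rose (0.273%) and 40 fell (0.404%). Of these, 26 and 37 were also called without the block, and all 215 genes called without it kept their sign with it. Both fits use the same arrays, so a kept sign is no separate test. In the blocked fit the vehicle and naive arrays also help to set the level of each set. A set with 5 arrays at 30 mg/kg and none at 3 mg/kg bears on the difference only through those arrays. The same holds for a set with 3 arrays at 3 mg/kg and none at 30 mg/kg. At 3 mg/kg, 2 arrays (replicates 9 and 18) stood apart by their immediate early genes, which neurons switch on with firing: the mean of the list, centred over all arrays, was at most 0.20 on the log2 scale at 30 mg/kg, against 0.83 and 1.18 in these arrays. Without both, 130 genes rose and 166 fell, and the counts of the microglial, macrophage and interferon lists below stayed within 1 of those given.

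**Figure D1:**
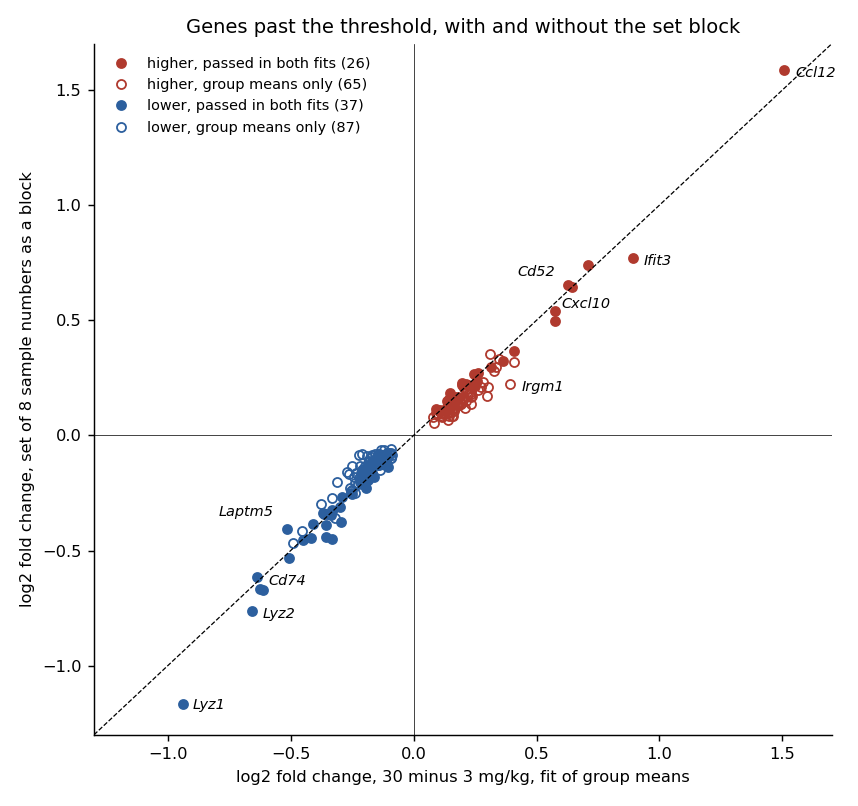
Log2 fold change (30 minus 3 mg/kg) of the 215 genes past the threshold, from the fit of group means (horizontal axis) and from the fit blocked by set of sample numbers (vertical axis). Filled points passed in both fits (26 higher, 37 lower), open points only without the block, and the dashed line marks equal values. All points keep their sign; Ccl12 lies at 1.51 and 1.59, Lyz1 at -0.94 and -1.17.

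Genes that mark resting microglia were lower at the higher dose. Of 20 genes listed for homeostatic microglia 16 could be tested, and 7 were lower and 1 higher, in the fit of group means and likewise in the blocked fit, beside 1.25% of all genes lower and 0.920% higher without the block and 0.404% and 0.273% with it. Their median log2 fold change was -0.26. The mean of the 16, centred over all arrays, lay at -0.39 to 0.06 (median -0.17) at 30 mg/kg and at -0.17 to 0.14 (median 0.04) at 3 mg/kg, and 8 of 15 arrays at 30 mg/kg were below the lowest at 3 mg/kg. Epileptic vehicle arrays had a median of 0.15 and naive arrays one of -0.19.

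Crybb1, a crystallin that microglia of mice express, had a log2 signal of 6.95 to 7.41 (median 7.15) at 30 mg/kg, against 7.28 to 8.09 (median 7.62) at 3 mg/kg. Of the arrays at 30 mg/kg, 12 of 15 lay below every array at 3 mg/kg. The log2 fold change was -0.50 (SE 0.06, limma adjusted p = 1.81e-07), and -0.53 with the set block. Crybb1 was detected on 8 of 15 arrays at 30 mg/kg and on all 18 at 3 mg/kg, and its median in naive mice was 7.47.

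Cx3cr1, the receptor for the neuronal chemokine fractalkine, had signals of 8.45 to 9.15 (median 8.89) at 30 mg/kg, against 8.83 to 9.43 (median 9.22) at 3 mg/kg. The groups overlapped, but every array at 30 mg/kg was below the median of the other group. Its log2 fold change was -0.35 (SE 0.07, limma adjusted p = 0.00123). P2ry13, a purine receptor of microglia, ran from 8.31 to 9.01 (median 8.67) at 30 mg/kg and from 8.71 to 9.24 (median 9.02) at 3 mg/kg, with a log2 fold change of -0.37 (SE 0.06, limma adjusted p = 5.76e-05). It too had all 15 arrays below the median at 3 mg/kg, 10 of them below the lowest. Fcrls, an Fc receptor-like molecule, and Selplg, the ligand of P-selectin, differed by -0.45 and -0.37 on the log2 scale. Gpr34, a lysophosphatidylserine receptor, differed by -0.30 and Rnase4, a secreted ribonuclease, by -0.33. Of the 2 kept probes of Rnase4 the dimmer one differed by 0.03. Its mean log2 signal was 7.05, near background, so the call rests on the brighter probe alone.

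Not every gene of resting microglia passed the threshold. At an unadjusted limma p under 0.05, 10 of the 16 were lower, beside 850 of 9893 genes. Tmem119, a membrane protein used as a microglial marker, differed by -0.14 and Siglech, a sialic acid-binding receptor, by -0.13 on the log2 scale without passing the threshold. Sall1, a transcription factor that maintains microglial identity, had signals of 7.48 to 7.77 (median 7.63) at 30 mg/kg and 7.57 to 7.82 (median 7.64) at 3 mg/kg. Its log2 fold change was -0.03, with a 95% interval of -0.09 to 0.02. The single member that was higher, Gpr84, is a fatty acid receptor known from activated rather than resting microglia.

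**Figure D2:**
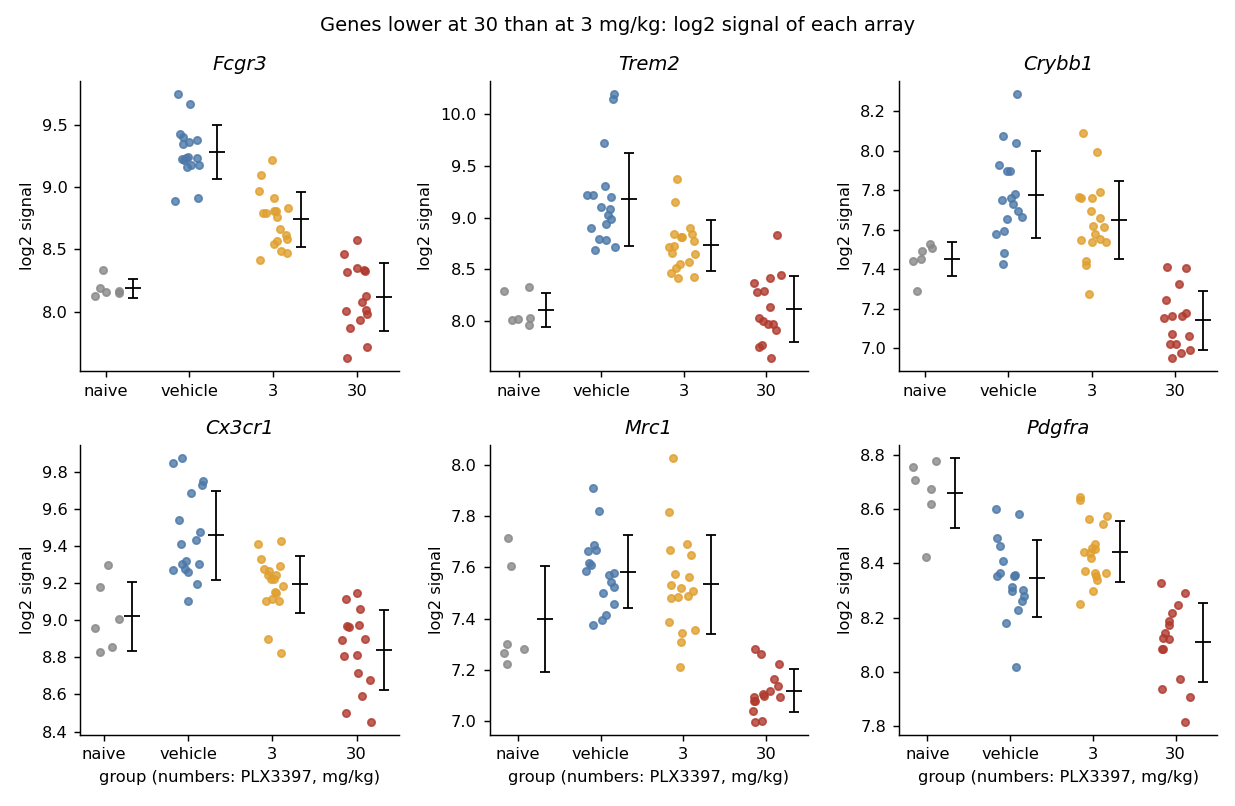
Log2 signal of 6 genes lower at 30 than at 3 mg/kg in every array of the 4 groups (naive with vehicle, epileptic with vehicle, epileptic with PLX3397 at 3 and at 30 mg/kg). Points are arrays, the bars beside them the mean and SD, and the vertical axes differ and do not start at 0. For Mrc1, 12 of 15 arrays at 30 mg/kg lie below the lowest at 3 mg/kg, and Pdgfra is highest in naive mice.

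Genes that microglia share with other macrophages fell as well. Among 28 tested of 34 listed, 11 were lower and none higher, 7 of them lower in the blocked fit (none higher), beside 1.25% of all genes lower without the block and 0.404% with it. Both counts include Ms4a7, which passed the detection filter through the groups in which it is high. The count of 11 also includes Fcgr2b, whose detection lay largely in such groups. It was detected on 4 of 15 arrays at 30 mg/kg, 14 of 18 at 3 mg/kg and 14 of 17 epileptic vehicle arrays. The median log2 fold change was -0.18. The mean of the list lay at -0.38 to 0.13 (median -0.22) at 30 mg/kg and -0.16 to 0.34 (median 0.01) at 3 mg/kg, with 9 of 15 arrays at 30 mg/kg below the lowest at 3 mg/kg. The median was 0.21 in epileptic vehicle arrays and -0.39 in naive arrays.

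Fcgr3, an activating receptor for IgG, had signals of 7.63 to 8.58 (median 8.07) at 30 mg/kg, against 8.42 to 9.22 (median 8.77) at 3 mg/kg. All but 2 arrays at 30 mg/kg were below the lowest at 3 mg/kg. It differed by -0.62 (SE 0.08, limma adjusted p = 1.29e-07), and by between -0.72 and -0.63 within each of the 5 sets that held both doses. Epileptic vehicle arrays had a median of 9.24 and naive arrays one of 8.16. Trem2, a lipid-sensing receptor of phagocytes, was at 7.64 to 8.83 (median 8.03) at 30 mg/kg, against 8.42 to 9.37 (median 8.72) at 3 mg/kg, a log2 fold change of -0.61 (SE 0.11, limma adjusted p = 0.000573). One array at 30 mg/kg exceeded the median of the other group, and 13 lay below its lowest value. Tyrobp, the adaptor through which Trem2 signals, differed by -0.18 with a 95% interval of -0.37 to 0.01 and did not pass.

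The largest fall was that of Lyz1, a lysozyme. Its signals were 8.48 to 10.99 (median 9.34) at 30 mg/kg, against 9.61 to 11.33 (median 10.26) at 3 mg/kg. These ranges overlapped widely, with 10 of 15 arrays at 30 mg/kg below the lowest of the other group. Its log2 fold change was -0.94 (SE 0.21, limma adjusted p = 0.00708), or 1.91-fold lower. Lyz2, its near copy, fell by 0.66 (SE 0.16); the probes of so similar a pair may read both transcripts. Laptm5, a lysosomal membrane protein of blood-derived cells, fell by 0.51 (SE 0.10) with 12 of 15 arrays at 30 mg/kg below 11.17, the lowest value at 3 mg/kg. Nckap1l, an actin regulator of blood cells, fell by 0.25, and C1qa, a chain of complement C1q, by 0.38. Ms4a7, a membrane protein of macrophages, and Fcgr2b, the inhibitory IgG receptor, were also lower, with log2 fold changes of -0.12 and -0.21, as were Unc93b1, a carrier of Toll-like receptors, with -0.22 and Plcg2, a signalling phospholipase, with -0.18. Blocked by set, the calls of C1qa (adjusted p = 0.251), Fcgr2b (0.257), Unc93b1 (0.233) and Plcg2 (0.234) were lost.

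Aif1, which encodes the microglial marker Iba1, did not follow. It had signals of 8.24 to 9.17 (median 8.57) at 30 mg/kg and 8.38 to 9.09 (median 8.53) at 3 mg/kg, with a log2 fold change of 0.06 and a 95% interval of -0.11 to 0.22. Both groups were below epileptic vehicle arrays (median 9.05), with log2 fold changes of -0.38 for the high and -0.44 for the low dose. Irf8, a transcription factor of myeloid cells, was detected on 5 of 15 arrays at 30 mg/kg and 1 of 18 at 3 mg/kg and differed by 0.06 without passing. Spi1, which encodes the factor PU.1, and Ctss, a cysteine protease, differed by 0.01 and 0.02. Adgre1 and Itga5 had probes below the detection filter.

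Macrophages of the perivascular space and meninges carry their own surface genes. Of 12 listed genes 4 could be tested, since 6 had probes below the detection filter and 2 no named probe, and all 4 tested were lower in both fits. Their mean, centred over all arrays, was -0.26 to -0.09 (median -0.22) at 30 mg/kg, against -0.07 to 0.40 (median 0.09) at 3 mg/kg, so that here the groups did not overlap, while 1.25% of all genes were called lower. Epileptic vehicle arrays had a median of 0.06 and naive arrays one of -0.09. The 4 genes were detected on 16 or 17 of the 17 epileptic vehicle arrays but on 2 to 10 of 15 at 30 mg/kg, so they passed the filter largely through the groups in which they are high, and their count and mean are a description only.

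Mrc1, the mannose receptor, had signals of 7.00 to 7.28 (median 7.10) at 30 mg/kg, against 7.21 to 8.03 (median 7.51) at 3 mg/kg. It was detected on 10 of 15 arrays at the high dose and on all 18 at the low dose. The log2 fold change was -0.42 (SE 0.05, limma adjusted p = 3.31e-07). F13a1, the A chain of coagulation factor XIII, was detected on 2 of 15 arrays at 30 mg/kg and on all 18 at 3 mg/kg, with signals of 6.90 to 7.12 at the high dose, against 7.10 to 7.85 at the low dose. Only 1 array at 30 mg/kg reached the lowest value at 3 mg/kg, and the log2 fold change was -0.33 (SE 0.05). Cbr2, a carbonyl reductase, and Stab1, a scavenger receptor, were detected on 7 and 3 of the 15 arrays at 30 mg/kg and on 18 and 17 of the 18 at 3 mg/kg, and fell by 0.29 and 0.16. Against epileptic vehicle arrays, which both comparisons share, Mrc1 differed by -0.47 with the high and -0.05 with the low dose, and Cbr2 by -0.19 with the high and 0.10 with the low dose.

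Class II antigen presentation, by which phagocytes show peptides to helper T cells, was lower in 2 of its 4 tested genes, beside 1.25% of all genes. Cd74, the invariant chain, had signals of 6.91 to 7.80 (median 7.24) at 30 mg/kg, against 7.34 to 8.59 (median 7.87) at 3 mg/kg, and all 15 arrays at 30 mg/kg were below the median of the other group. It differed by -0.64 on the log2 scale (SE 0.11, limma adjusted p = 0.000359). H2-Eb1, a class II beta chain, was detected on 1 of 15 arrays at 30 mg/kg and 11 of 18 at 3 mg/kg and differed by -0.25, a call lost with the set block (adjusted p = 0.0781). It was detected on 10 of 17 epileptic vehicle arrays and on no naive array, so it passed the filter through the groups in which it is high. H2-Ab1, another beta chain, and H2-DMa, which helps to load peptide, differed by -0.47 and 0.07 without passing. Over the whole list of 12 tested genes for antigen presentation, 2 were lower, none higher and the median was 0.06, and the class I genes B2m, H2-D1 and H2-K1 differed by 0.09, 0.07 and 0.02.

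Outside the lists, 3 further genes that were lower in both fits are given, Tgfbr1 for its small p in the blocked fit and the other two chosen after their values were seen. They were Tgfbr1, a receptor for TGF-beta, with a log2 fold change of -0.36 and no array at 30 mg/kg above the median at 3 mg/kg, Alox5ap, which serves leukotriene synthesis, with -0.41, and Slco2b1, an anion transporter, with -0.33. Tgfb1, a ligand of Tgfbr1, differed by -0.17, and its call was lost with the set block (adjusted p = 0.187).

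Pdgfra, a receptor kinase of the same family as CSF1R that marks oligodendrocyte precursors, was lower at 30 mg/kg. Its signals were 7.82 to 8.33 (median 8.12) at 30 mg/kg, against 8.25 to 8.64 (median 8.44) at 3 mg/kg. Of the arrays at 30 mg/kg, 13 of 15 lay below all arrays at 3 mg/kg. The log2 fold change was -0.33 (SE 0.05, limma adjusted p = 1.42e-06), and -0.35 with the set block. Unlike Fcgr3 or Trem2, Pdgfra had a higher median in naive mice (8.69) than in epileptic vehicle mice, where it was 8.35. It was the only gene called among the 8 tested for oligodendrocyte precursors (median of the list -0.05) and among the 4 tested for the CSF1 axis. The ligands Csf1 and Il34 differed by 0.02 and 0.08 on the log2 scale, with 95% intervals of -0.06 to 0.10 and -0.09 to 0.24. Within the 5 sets with both doses Il34 was higher at 30 mg/kg each time, by 0.11 to 0.44, above the value from all arrays. Csf1 differed by -0.05 to 0.18 within these sets.

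The largest rise was that of a chemokine. Ccl12, a ligand of the monocyte receptor CCR2 in mice, had signals of 7.54 to 9.92 (median 8.84) at 30 mg/kg, against 7.00 to 8.77 (median 7.19) at 3 mg/kg. All 15 arrays at 30 mg/kg exceeded the median and 9 the highest value of the other group. Ccl12 was 2.84-fold higher, a log2 fold change of 1.51 (SE 0.19, limma adjusted p = 1.29e-07), and was higher by 1.02 to 2.23 within each of the 5 sets with both doses. Epileptic vehicle arrays ran from 7.18 to 9.91 (median 7.44). In naive arrays the median was 6.98, and Ccl12 was not detected on any of them.

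Cxcl10, a T-cell attractant that interferons induce, had signals of 7.11 to 8.25 (median 7.75) at 30 mg/kg, against 6.91 to 7.39 (median 7.07) at 3 mg/kg. It was detected on all 15 arrays at the high dose and on 9 of 18 at the low dose, and 12 arrays at 30 mg/kg were above all at 3 mg/kg. The log2 fold change was 0.64 (SE 0.08, limma adjusted p = 7.23e-08). Il1a, an inflammatory cytokine, was detected on 8 of 15 arrays at 30 mg/kg and not well above background on any of the 18 at 3 mg/kg. It was thus at least 1.00-fold higher (adjusted p = 8.65e-05), and since it passed the detection filter through the arrays at 30 mg/kg, it had to differ. Of 14 chemokine and cytokine genes tested, 3 were higher and 1 lower, beside 0.920% and 1.25% of all genes, and the median of the list was 0.02. Ccl4, an inflammatory chemokine, differed by 0.27 without passing, and Ccl3 and Il1b by 0.06 and -0.04.

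**Figure D3:**
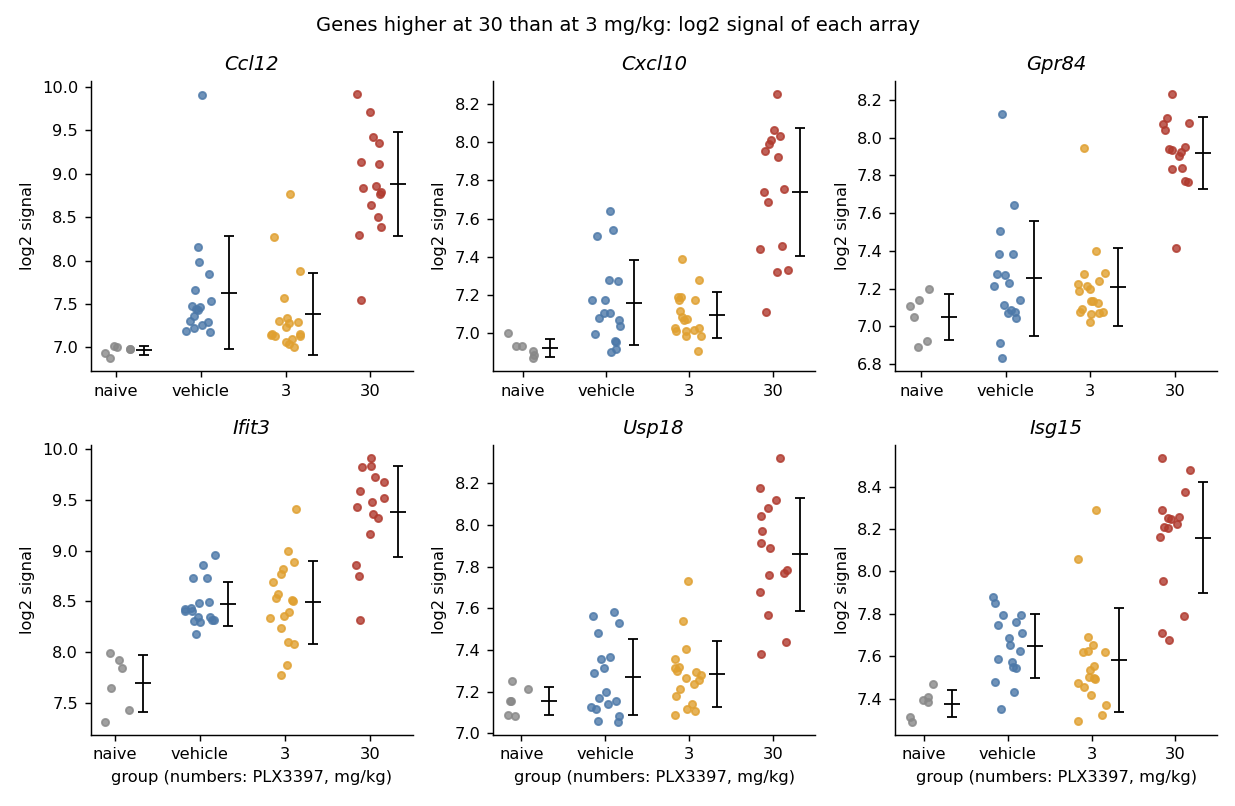
Log2 signal of 6 genes higher at 30 than at 3 mg/kg in every array of the 4 groups, with mean and SD beside the points. For Cxcl10, 12 of 15 arrays at 30 mg/kg lie above all at 3 mg/kg. The vertical axes differ and do not start at 0; 1 epileptic vehicle array has a Ccl12 signal of 9.91.

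Interferon-induced genes were higher at 30 mg/kg. Among 21 tested of 34 listed, 11 were higher and none lower, and 7 were higher in the blocked fit (none lower), beside 0.920% and 0.273% of all genes. Both counts include Mx2, which was detected on 7 arrays at 30 mg/kg and none at 3 mg/kg and so had to differ to pass the filter. The list's median was 0.18, beside -0.0012 over all genes. Of the rest, 10 had probes below the detection filter and 3 no named probe. The mean of the list lay at -0.09 to 0.31 (median 0.20) at 30 mg/kg and -0.15 to 0.20 (median -0.08) at 3 mg/kg, with 7 of 15 arrays at 30 mg/kg above the highest at 3 mg/kg. The median score was 0.01 in epileptic vehicle arrays and -0.27 in naive arrays.

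Interferons act through a transcription factor complex that contains IRF9 and binds the interferon-stimulated response element, a sequence with a repeated GAAA-like motif. Its core was searched as GAAANNGAA on both strands, overlapping matches included, in the 300 bases around each gene's start site given by RefSeq on build GRCm38.p6. Of 8006 tested genes with such a window, 671 (8.38%) held it. Among genes with a window, so did 13 of 77 called higher (16.9%) and 13 of 100 called lower (13.0%). Of the 21 interferon genes tested, 14 had a window, and 10 of these held it (71.4%). Irf9 and Oasl2, called higher, had windows without a match. Of the 13 called higher with a match, 6 were interferon genes of the list. Cxcl10, Dus3l, Eif2ak2, Gpm6a, Irgm2, Mob4 and Swt1, called higher and outside that list, held the others. A match is a run of letters only and was not tested as a site. The stretches around the matches are shown for 5 interferon-induced genes that were higher, picked for display to let the arrangement of the cores be compared. They run 5′ to 3′ on the gene's strand with the matches in capitals. TTC at the start of a capital run marks a match on the other strand.
Isg15, chr4:156200856-156200916 (- strand): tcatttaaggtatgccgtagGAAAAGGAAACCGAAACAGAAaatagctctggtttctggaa
Ifit3, chr19:34583354-34583455 (+ strand): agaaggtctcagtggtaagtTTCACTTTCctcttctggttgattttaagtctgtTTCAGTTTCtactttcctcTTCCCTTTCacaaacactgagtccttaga
Cxcl10, chr5:92349074-92349122 (- strand): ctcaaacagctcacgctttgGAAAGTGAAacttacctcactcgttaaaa
Rsad2, chr12:26456543-26456591 (- strand): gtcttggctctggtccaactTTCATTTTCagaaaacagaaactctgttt
Gbp3, chr3:142559980-142560034 (+ strand): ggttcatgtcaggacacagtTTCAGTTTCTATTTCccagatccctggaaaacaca
Isg15 held 3 overlapping matches in 1 run and Ifit3 held 3 spread ones. Cxcl10 and Rsad2 held 1 each and Gbp3 held 2.

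Ifit3, an antiviral protein of the IFIT family, had the largest rise of the list. Its signals were 8.32 to 9.91 (median 9.48) at 30 mg/kg, against 7.78 to 9.41 (median 8.51) at 3 mg/kg. The log2 fold change was 0.89 (SE 0.12, limma adjusted p = 1.42e-06), and 9 arrays at 30 mg/kg were above all at 3 mg/kg. Usp18, a protease that removes ISG15 from proteins, was at 7.38 to 8.32 (median 7.89) at 30 mg/kg and 7.09 to 7.73 (median 7.27) at 3 mg/kg, a log2 fold change of 0.57 (SE 0.07). Isg15, the ubiquitin-like protein itself, had 7.68 to 8.54 (median 8.22) at 30 mg/kg and 7.29 to 8.29 (median 7.52) at 3 mg/kg, a log2 fold change of 0.58 (SE 0.07). For Usp18 and Isg15 every array at 30 mg/kg exceeded the median at 3 mg/kg. Rsad2, an antiviral radical enzyme, was higher by 0.26 (SE 0.04) and Irf9, a part of the complex named above, by 0.25 (SE 0.04).

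One array at 3 mg/kg was an exception. Replicate 14 had the highest Ifit3 (9.41), Isg15 (8.29) and Usp18 (7.73) of its group, and it was the only array at 3 mg/kg in its set. Within that set the 3 arrays at 30 mg/kg minus this array gave -0.24 for Ifit3, -0.20 for Isg15 and -0.06 for Usp18, while the differences in the other 4 sets with both doses were positive for all 3 genes. Without replicate 14 of the 3 mg/kg group 111 genes were higher and 142 lower.

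The remaining called genes of the interferon list were Irgm1, Ifi27, Gbp3, Igtp, Oasl2 and Mx2. Irgm1 and Igtp are immunity-related GTPases, and their log2 fold changes were 0.39 and 0.20. Gbp3, a guanylate-binding protein, and Ifi27, a mitochondrial membrane protein, differed by 0.25 and 0.33. The calls of these 4 genes were lost with the set block, where the adjusted p of Irgm1 was 0.262, of Igtp 0.0739, of Gbp3 0.149 and of Ifi27 0.127. Oasl2, an oligoadenylate synthetase-like protein, was higher by 0.18. Mx2, a dynamin-like antiviral GTPase, was detected on 7 of 15 arrays at 30 mg/kg and not well above background on any at 3 mg/kg, hence at least 1.00-fold higher; it too passed the filter through the arrays at 30 mg/kg. Set against epileptic vehicle arrays, Irgm1 differed by -0.15 with the high dose, without passing, and by -0.54 with the low dose. For Ifi27 these log2 fold changes were 0.13, again without passing, and -0.20.

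Other genes with large rises were Gpr84 and Cd52. Gpr84 had signals of 7.41 to 8.23 (median 7.93) at 30 mg/kg, against 7.02 to 7.95 (median 7.16) at 3 mg/kg. Every array at 30 mg/kg was above the median and 6 above the highest value of the other group. Its log2 fold change was 0.71 (SE 0.08, limma adjusted p = 2.29e-08). Cd52, a small surface glycoprotein of immune cells, ran from 8.34 to 9.34 (median 8.78) at 30 mg/kg and from 7.72 to 9.00 (median 8.20) at 3 mg/kg, a log2 fold change of 0.63 (SE 0.12, limma adjusted p = 0.00148). Cd52 had a median of 8.59 in epileptic vehicle arrays and 7.46 in naive arrays. It was the only gene called among 15 tested for disease-associated phagocytes, whose median was -0.05; Apoe, a lipid carrier, differed by -0.09, Clec7a, a beta-glucan receptor, by 0.04 and Gpnmb, a lysosomal glycoprotein, by -0.26. Slamf9, a receptor of the SLAM family that stands in none of the lists, was named after its value was seen and was higher by 0.36.

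Of 8 tested proliferation genes 1 passed, Mcm5, beside 0.920% of all genes higher, and the list's median was 0.06. Mcm5, a subunit of the replicative helicase, had signals of 7.57 to 8.34 (median 7.94) at 30 mg/kg, against 7.47 to 8.01 (median 7.68) at 3 mg/kg, and a log2 fold change of 0.25 (SE 0.05, limma adjusted p = 0.00433). The groups overlapped, and 2 arrays at 30 mg/kg were below the median of the other group. Mcm2 and Mcm6, further helicase subunits, differed by 0.04 and 0.02. Cdc7, the kinase that fires replication origins, and Cdca7, a target of the cell-cycle factor MYC, were named after their values were seen and were higher by 0.26 and 0.20.

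The 10 highest and 10 lowest fold changes also held 4 genes of other kinds. Sorcs3, a neuronal sorting receptor, and Tenm4, a teneurin of the synaptic surface, differed by -0.49 and -0.45, and Wsb1, a ubiquitin ligase subunit, and Hnrnpdl, an RNA-binding protein, by 0.41 each. Hnrnpdl passed with the set block (adjusted p = 0.0385), and Sorcs3 (0.139), Tenm4 (0.106) and Wsb1 (0.154) did not. Sorcs3 ran from 8.02 to 8.84 at 30 mg/kg, against 8.39 to 10.28 at 3 mg/kg. Set against epileptic vehicle arrays, Wsb1 differed by 0.01 with the high and -0.39 with the low dose.

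Other cell types of the hippocampus showed few calls. Of the 14 reactive astrocyte genes tested none passed, and Gfap, the astrocyte filament protein, had signals of 8.65 to 10.72 (median 9.75) at 30 mg/kg, against 8.78 to 10.44 (median 9.43) at 3 mg/kg, a log2 fold change of 0.26 with a 95% interval of -0.14 to 0.65. Within the 5 sets with both doses Gfap differed by -0.31 to 0.09, below the value from all arrays. It differed by -0.35 in the run of low sample numbers and by 0.36 in the run of high ones. No gene was called for homeostatic astrocytes (10 tested), mural cells (11), fibroblasts and matrix (17), oligodendrocytes (11), pyramidal and granule neurons (15), immediate early genes (16), neuropeptides (15), complement outside C1q (5), choroid plexus (8), glucocorticoid-induced genes (14), clock genes (12), heat shock (12) or cholesterol synthesis (12). At an unadjusted p under 0.05, where 850 of 9893 genes were lower, matrix genes numbered 6 of 17 lower (median -0.18), endothelial genes 6 of 18, lysosomal genes 6 of 19, mural genes 4 of 11 and homeostatic astrocyte genes 3 of 10. Reln, a secreted guide of neuronal layering made by interneurons, fell by 0.30 on the log2 scale (SE 0.07) and was the only call of 11 interneuron genes. Eng, a co-receptor of endothelium, and Lamp1, a lysosomal membrane protein, differed by -0.14 and -0.21, each the only call of its list, and both were lost with the set block (adjusted p 0.434 and 0.234). Blood genes gave no call among 7 tested and a median of -0.08; Hba-a1, a globin chain of red cells, and S100a8, of neutrophils, differed by -0.44 and -0.08. The part of blood content in the other differences was not tested.

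**Figure D4:**
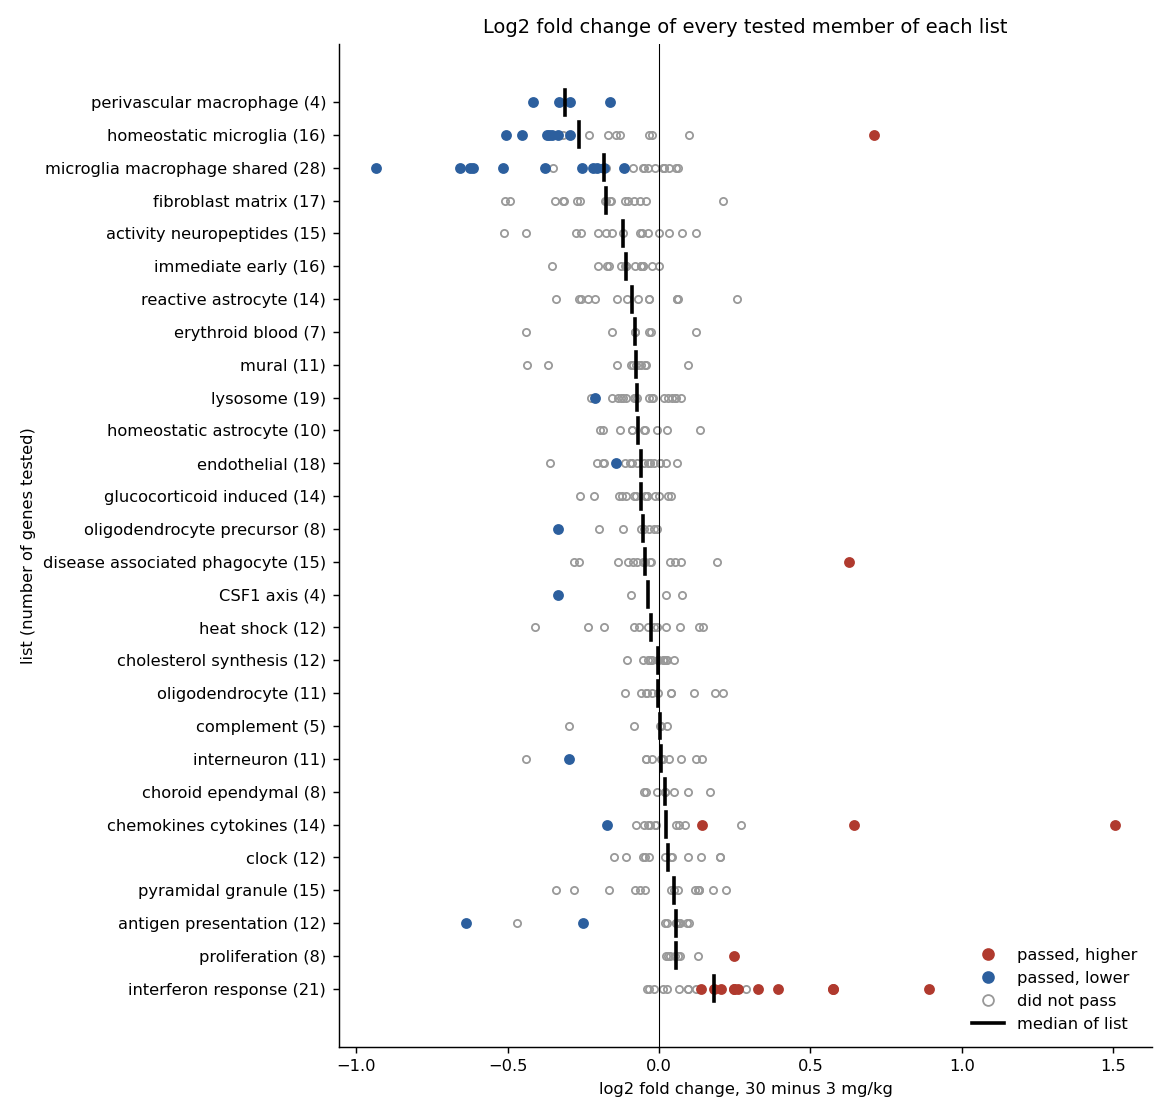
Log2 fold change (30 minus 3 mg/kg, horizontal axis) of every tested member of 28 gene lists, ordered by their median (black bar). Filled points passed the threshold (red higher, blue lower), open points did not, and the number tested is in brackets. Perivascular macrophage genes (median -0.31) are at the top and interferon genes (median 0.18) at the bottom.

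The called genes were also followed within sets of sample numbers. Their differences came from these same 33 arrays, so a kept sign was largely given beforehand and is a description only. The spread behind the calls came from all 56 arrays. The share of kept signs over all genes was not counted. Of the 91 genes called higher 47, and of the 124 called lower 80, had the same sign in all 5 sets with both doses, though single sets held as few as 1 array of a dose. In the run of high numbers alone, with 13 arrays at 30 mg/kg and 10 at 3 mg/kg, all 91 and 124 kept their sign, and 20 genes were higher and 25 lower past the threshold. The dose difference differed between the runs past the threshold for 0 of 9893 genes (limma interaction, 207 at an unadjusted p under 0.05), with only 2 arrays at 30 mg/kg in the run of low numbers. Among genes called higher, Ccl12, Gpr84, Ifit3, Isg15, Usp18 and Rsad2, and among those called lower, Fcgr3, Trem2, Crybb1, P2ry13, Mrc1, F13a1, Cbr2, Cd74 and Pdgfra, were among the 13 higher and 18 lower genes called under every one of 15 other settings in which they were tested. With each of the 33 arrays left out in turn, 56 higher and 65 lower genes were called every time.

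**Figure D5:**
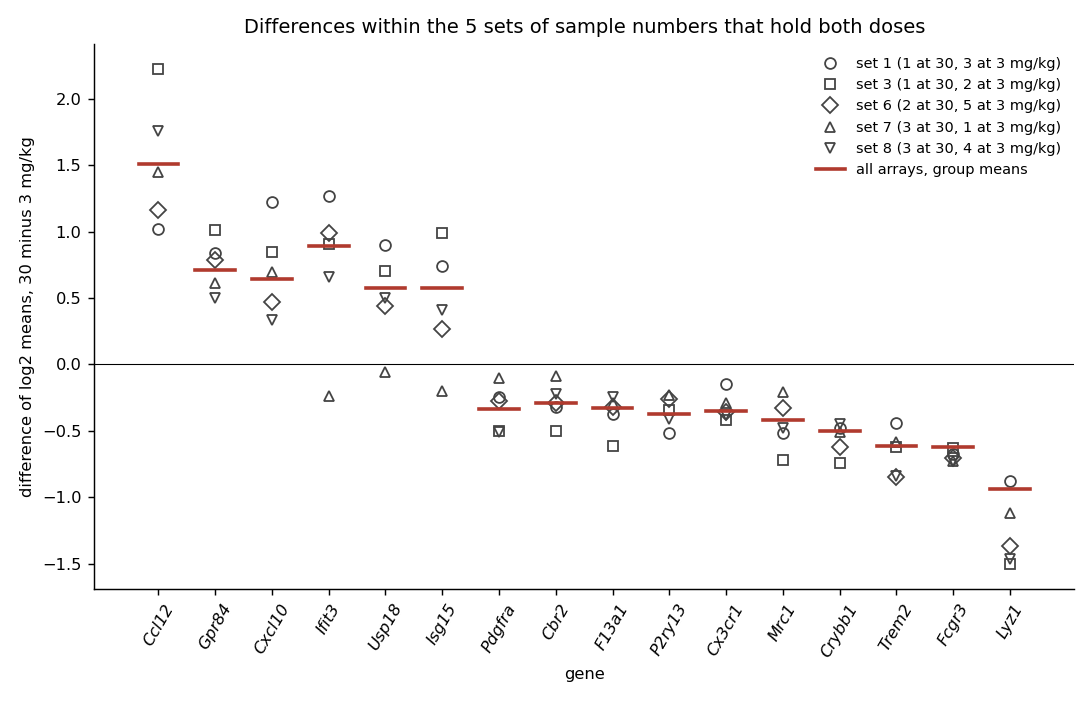
Difference of log2 means (30 minus 3 mg/kg) of 16 genes within each of the 5 sets of sample numbers that held both doses (symbols) and from all arrays (red bars). Fcgr3 lies between -0.72 and -0.63 in every set, and Ifit3, Isg15 and Usp18 turn negative in the set with a single array at 3 mg/kg.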

How the data were processed

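Hippocampal RNA was hybridised to Illumina MouseRef-8 v2 arrays. The authors deposited probe intensity values extracted with GenomeStudio 2011.1 without background subtraction or normalisation, with a detection p-value for each intensity. The log2 values deposited by the authors were made with lumi (version not given in the sources used here) by quantile normalisation, and served as an alternative. They matched their own array for all 56 arrays. All columns were mapped to a sample.

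Intensities were log2 transformed and quantile normalised over the 56 arrays. Of 25697 probes 23978 had 1 gene symbol, none had several and 1719 had none listed; 23962 were updated through gene identifiers and 9 through accessions with a RefSeq table of GRCm38.p6, and 7 kept their symbol. A probe had to reach a detection p under 0.05 on 6 arrays or more; 14058 did (13265 named). The probe with the highest mean stood for its gene, which left 9893 genes. A gene detected on no array of 1 dose is given as a bound: the mean of the brighter group against the lowest detected signal of each dimmer array, or the probe's own if higher. The number of arrays limits the precision.

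The test was limma (version 3.58.1, R version 4.3.3) on 1 model of 4 group means over all 56 arrays, p-values adjusted by Benjamini-Hochberg, and calls at an adjusted p under 0.05. The fit was tested on simulated data. Alternatives concerned background, scaling, filter, probe choice, weights, batches, samples and each array left out. The members and gene lists were chosen with earlier results of these data known. Named genes were those the study names (with an exception not reported here), the 10 highest and 10 lowest fold changes past the threshold, the 10 smallest p-values with the set block, and up to 5 members of smallest p per list; other genes were named after their values were seen.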

Additional observations from a re-analysis of the deposited data

Results flagged for a closer look

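In the 6 naive arrays, the gap between an extreme array and its neighbour, divided by the group's range, was above Dixon's critical value for 7 of 143 named genes, where chance gives about 1 in 20. The ratio was 0.716 for Fcgr3, 0.640 for Crybb1, 0.641 for Timp2, 0.689 for Rsad2, 0.685 for Tgfb1, 0.753 for Slc2a1 and 0.726 for Alas2. Naive arrays are not compared in the contrast of 30 with 3 mg/kg. They help to estimate its spread and, in the blocked fit, the level of the sets. The dose groups, with 15 and 18 arrays, are too large for this rule.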

How the results depend on the processing

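No named gene past the threshold changed sign under any alternative. Among all called genes, 1 changed sign with the mean of all probes in place of the brightest. Of 69 called genes with several kept probes, 55 had all probes of the same sign. Fitted on the arrays of the 2 doses alone, 74 genes were higher and 97 lower. Set beside 91 higher and 124 lower genes, the counts were 26 higher and 75 lower with median scaling, 166 and 202 with array weights, 27 and 40 when blocked by set, 53 and 67 with the set as a random block, 89 and 81 with the run as a block, and 20 and 25 in the run of high sample numbers alone, which has fewer arrays. Of the interferon genes 11 were higher; 7 were with median scaling, 7 with the set block and 6 in that run. Of the shared macrophage genes 11 were lower; 7 were with the set block, the random block or the run block and 3 in that run. Of the homeostatic genes 7 were lower, and 2 in that run. With 1 array left out, 59 to 165 genes were higher and 76 to 193 lower, shared macrophage genes lower numbered 7 to 11, interferon genes higher 10 to 12, homeostatic genes lower 6 to 7, and perivascular genes lower 4 each time. The counts moved most without replicates 7 (59 and 76) and 1 (165 and 193) of the 30 mg/kg group; those lowered or raised by over 1.5 times in 1 direction were without replicates 5 (81 lower), 8 (142 higher), 10 (78 lower) and 12 (150 higher) at 30 mg/kg and 15 (140 higher) at 3 mg/kg. The shared count of 7 came without replicate 10 at 30 mg/kg or replicate 5 at 3 mg/kg. The interaction of dose and run gave 0 genes, and 1 with normexp (Hmgxb3). The causes were not tested.

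Replicate numbers did not pair the arrays: over 15 pairs the correlation ran from -0.43 to 0.39, and 0 of 15 correlated best with their own number. Under the replicate block, 114 rose and 136 fell. Leaving out the 2 arrays with high immediate early genes, chosen after seeing the data, gave 130 and 166, and keeping only genes detected on all 33 arrays, likewise chosen, gave 90 and 106 of 6868.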
